A study of Mus musculus with 8 samples.

Results

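The genes described here encode the subunits of the receptors for glutamate and GABA, the main excitatory and inhibitory transmitters of the forebrain. They were chosen by gene symbol, as every symbol of the AMPA, kainate, NMDA, delta, metabotropic glutamate, GABA-A and GABA-B receptor families. The deposited tables held 46 such genes among 20190 symbols. Of these, 18 encode ionotropic glutamate receptor subunits, 8 encode metabotropic glutamate receptors, 18 encode GABA-A subunits and 2 encode GABA-B subunits.

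Ionotropic receptors are ion channels assembled from several subunits, and the subunit mix sets conductance, kinetics and position at the synapse. AMPA, kainate and NMDA receptors are tetrameric glutamate-gated channels, whereas GABA-A receptors are pentameric chloride channels that typically combine alpha, beta and gamma subunits. Metabotropic glutamate (mGlu) receptors and the GABA-B dimer signal through G proteins. In the developing cortex these receptors are present before most synapses form and act on progenitors and migrating neurons, and GABA can depolarize immature neurons.

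Gene expression was measured by RNA-seq in C57BL/6 mice with a conditional loss of Hdac3 (KO), which encodes a class I histone deacetylase, or wild type (WT). The neurosphere groups were 2 KO libraries (KO 7 and KO 8) and 2 WT libraries (WT 5 and WT 6) of floating progenitor cultures, grown until day 4 from E16.5 embryonic cerebrum. The cortex groups were 2 KO libraries (KO 1 and KO 2) and 2 WT libraries (WT 1 and WT 2) of dorsal cortex taken from newborn (P0) pups. The design text counts 2 brains per genotype and tissue, so libraries were read as separate brains. The cortex KO titles name Emx1, and the name of the authors' cortex table gives it as the Cre driver. That driver acts in dorsal telencephalic progenitors and their descendants, so interneurons born ventrally and microglia need not have lost the gene. No Cre driver is named for the neurosphere KO in the sources used here.

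Levels are FPKM, mapped fragments corrected for library size and transcript length, as deposited by the authors. Hdac3 itself had 26.8 and 27.1 FPKM in KO cortex, against 48.1 and 46.1 FPKM in WT cortex (log2 fold change −0.78, limma-trend adjusted p = 0.000319). In neurospheres Hdac3 had 18.03 and 20.5 FPKM in KO, against 34.4 and 28.7 FPKM in WT, and did not pass the threshold (log2 fold change −0.68, limma-trend adjusted p = 0.104). The authors' deposited table gave Hdac3 −0.52 in cortex with an adjusted p of 3.83e-07. In neurospheres it gave −0.29 with an adjusted p of 0.437. The ribosomal RNA transcript Rn45s had 830 and 3438 FPKM in KO cortex, against 289 and 266 FPKM in WT cortex. It was higher in both KO libraries, most in KO 2 (log2 fold change 2.60, limma-trend adjusted p = 0.00819). The authors' deposited table gave Rn45s 0.48 in cortex with an adjusted p of 0.042. Over all genes the median log2 fold change lay at −0.10 in cortex and −0.15 in neurospheres rather than at 0, so calls were also counted after rescaling each library by median ratios. Over all genes that rescaling moved the split of cortex calls to 1146 higher and 929 lower, against 575 higher and 2124 lower on FPKM as deposited. In neurospheres it gave 52 higher and 78 lower, against 25 higher and 106 lower.

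Of the 46 receptor genes, 35 had an FPKM value in cortex, 31 in neurospheres and 30 in both. The FPKM tables had been restricted on WT libraries (lowest WT value 1.0 FPKM in cortex and 0.999 FPKM in neurospheres), so a gene near silence in WT was outside them whatever its level in KO. Genes low only in KO could remain, so counts on FPKM can favour lower over higher calls, among receptor genes and all genes alike. Library totals were not used here, and depth is unknown. As a guide to counting precision, the deposited Cufflinks interval reached to a median of 6.40% of the FPKM on either side for the receptor genes in cortex and 8.74% in neurospheres, and to 25.1% and 50.0% for the least precise values.

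In newborn cortex 23 of the 35 measured receptor genes fell in KO and 1, the kainate subunit gene Grik3, rose (limma-trend on log2(FPKM + 1), Benjamini-Hochberg adjustment over all 11988 genes tested, threshold 0.05). Over all genes tested, 17.7% were called lower and 4.8% higher. Genes that fell were found among the AMPA, kainate, NMDA, metabotropic, GABA-A and GABA-B receptor genes. The median log2 fold change of the 35 genes was −0.42, beside −0.10 for all genes tested. After rescaling, 17 genes were lower and 1 higher, with medians of −0.34 for the receptor genes and 0 for all genes. Both KO libraries lay below both WT libraries for 30 of the 35 genes, beside 50.2% of all genes, and above both for 1, beside 15.5%. In the authors' deposited table, 17 of 39 receptor genes with an adjusted p were lower and 1 was higher, beside 5.55% and 6.35% of all genes.

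In neurospheres only Grm2 was called among 31 measured receptor genes, as lower, and 0 were called higher (limma-trend adjusted p, as above). Over all 11408 genes tested, 0.929% were called lower and 0.219% higher. Without adjustment, 4 receptor genes were higher and 8 lower at p under 0.05, beside 3.77% and 16.3% of all genes. The authors' deposited table called 4 receptor genes higher (Gria1, Gria4, Grik1 and Grik3) and 3 lower (Gabra2, Grin2c and Grm2) of 34, beside 3.49% and 2.3% of all genes. Both KO libraries lay above both WT libraries for 6 receptor genes, beside 14.6% of all genes, and below both for 14, beside 38.3%. The 6 genes with higher values were all ionotropic glutamate subunit genes, a class that supplied 15 of the 31 measured genes. The ionotropic genes Gria3, Grid1, Grik4 and Grin2c were among the 14 with lower values. The median log2 fold change of the receptor genes was −0.16, beside the −0.15 of all genes.

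**Figure D1:**
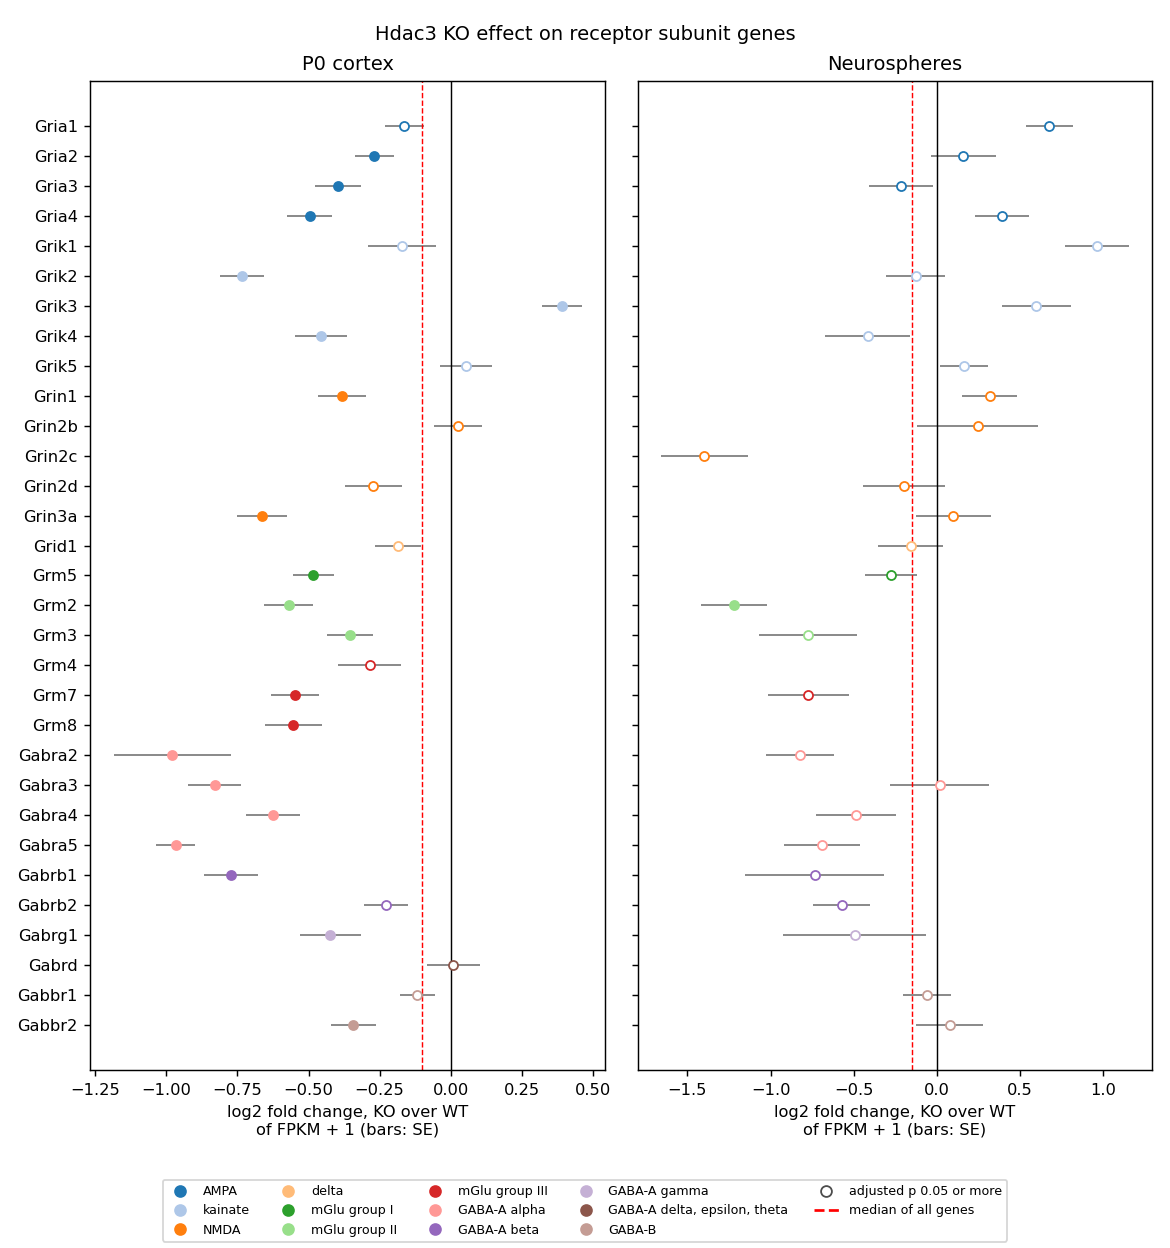
Log2 fold change of KO over WT in FPKM + 1 for 30 receptor genes in P0 cortex and 28 in neurospheres (points, with the SE as bars), cortex on the left and neurospheres on the right, coloured by receptor class. Filled points passed the adjusted p threshold of 0.05: 20 of 30 in cortex, all to the left of 0 except Grik3, and Grm2 in neurospheres.

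The promoters of 4 of these genes are shown because they carry the contrasts that recur in the values below: Grik3, which rose in KO cortex, Grik2 of the same class, which fell, Gabra5, which fell with the smallest adjusted p among the receptor genes, and Grm2, which fell in both tissues. Each line gives the 250 bases before the transcription start from RefSeq on build GRCm38.p6, 5′ to 3′ on the gene's strand, whereas the deposited tables were made on mm9. The intervals are chr4:125490446-125490695 (plus strand) for Grik3, chr10:49788755-49789004 (minus strand) for Grik2, chr7:57510060-57510309 (minus strand) for Gabra5 and chr9:106656110-106656359 (minus strand) for Grm2. Capitals mark GC boxes (GGGCGG on either strand, the letters bound by Sp1 family factors) and, in Grm2, the left and right parts of an RE1 element, TCAGCACC and GGACAG, with the bases between them.
Grik3: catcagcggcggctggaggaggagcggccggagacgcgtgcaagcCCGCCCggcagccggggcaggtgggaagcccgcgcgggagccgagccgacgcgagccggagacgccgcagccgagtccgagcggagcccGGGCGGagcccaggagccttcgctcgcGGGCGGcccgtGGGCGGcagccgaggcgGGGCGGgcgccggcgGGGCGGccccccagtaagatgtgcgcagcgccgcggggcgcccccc
Grik2: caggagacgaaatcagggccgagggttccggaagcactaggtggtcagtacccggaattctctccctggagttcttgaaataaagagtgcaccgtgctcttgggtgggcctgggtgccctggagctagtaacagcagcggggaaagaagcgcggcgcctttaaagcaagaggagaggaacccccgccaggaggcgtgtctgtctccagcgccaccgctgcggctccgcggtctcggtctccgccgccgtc
Gabra5: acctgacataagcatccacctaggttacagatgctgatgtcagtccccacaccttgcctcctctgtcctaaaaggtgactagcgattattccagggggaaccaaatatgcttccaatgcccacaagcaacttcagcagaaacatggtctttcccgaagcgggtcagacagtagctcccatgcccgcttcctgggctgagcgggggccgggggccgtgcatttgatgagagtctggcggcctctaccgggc
Grm2: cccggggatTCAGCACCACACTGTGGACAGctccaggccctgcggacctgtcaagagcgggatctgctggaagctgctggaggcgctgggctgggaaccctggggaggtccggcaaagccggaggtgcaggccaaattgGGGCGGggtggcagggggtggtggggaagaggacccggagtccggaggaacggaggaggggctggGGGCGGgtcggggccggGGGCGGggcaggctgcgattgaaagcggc
Grik3 held 6 GC boxes and 42 CpG dinucleotides at a GC content of 82.0%. Grik2 held no GC box and 20 CpG, Gabra5 no GC box and 9 CpG, and Grm2 3 GC boxes and 16 CpG. A RefSeq promoter entry was found for 31 of the 46 receptor genes, 38 entries in all. Of these 38, 18 held a GC box, beside 32.74% of all 32851 promoters. The median number of CpG was 9 in receptor gene promoters and 6 in all promoters. The TATA box letters TATAAA were in 4 of the 38 and 12.37% of all, and the cAMP response element TGACGTCA in 0 of the 38 and 1.55% of all. The RE1 element is the binding site of the neuronal gene repressor REST. These parts in this order, with 0 to 12 bases between them on either strand, were searched for after the Grm2 sequence had been seen, and were in 13 promoters, 0.04%, of which 1 was that of Grm2. A match describes the letters only.

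Kainate receptor genes moved apart from one another in KO cortex: Grik3 rose, Grik2 and Grik4 fell, and Grik1 and Grik5 did not pass the test. Grik3, which encodes the channel-forming subunit GluK3, had 26.4 and 26.8 FPKM in KO cortex, against 19.4 and 20.7 FPKM in WT cortex. Both KO values lay above both WT values (log2 fold change 0.39, SE 0.07, limma-trend adjusted p = 0.00693). Grik2, which encodes GluK2, had 10.9 and 9.98 FPKM in KO cortex, against 18.1 and 17.9 FPKM in WT cortex. The groups did not overlap, and the log2 fold change was −0.73 (SE 0.08, limma-trend adjusted p = 0.00111). Grik4, which encodes the high-affinity subunit GluK4, had 3.25 and 3.11 FPKM in KO cortex, against 4.93 and 4.54 FPKM in WT cortex (log2 fold change −0.46, limma-trend adjusted p = 0.0108). Grik5, which encodes the other high-affinity subunit, GluK5, was the most abundant kainate transcript, with 36.3 and 41.1 FPKM in KO cortex and 40.1 and 34.3 FPKM in WT cortex, and these ranges overlap. Leaving out KO 2 ended the calls of Grik3 (adjusted p = 0.0604) and Grik4 (adjusted p = 0.0692).

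The summed FPKM of the 5 kainate genes differed little, at 81.4 and 86.7 in KO cortex and 87.9 and 84.0 in WT cortex, a ratio of 0.978. The make-up of that sum differed more. Grik2 supplied 12.5% ± 1.32 of it in KO cortex and 21.0% ± 0.45 in WT cortex (SD, n = 2 each). The Grik3 share was 31.7% ± 1.03 in KO cortex and 23.4% ± 1.85 in WT cortex (SD, n = 2 each). In all 4 libraries Grik5 held the largest share and Grik3 the next.

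In neurospheres the kainate values differed most for Grik1, which encodes GluK1, a subunit known in interneurons. Grik1 had 11.5 and 10.2 FPKM in KO neurospheres, against 5.57 and 4.64 FPKM in WT neurospheres. Both KO values lay far above the WT ones, with a log2 fold change of 0.96 (SE 0.19) that did not pass the limma-trend threshold (adjusted p = 0.0759) and did after rescaling (1.11, adjusted p = 0.0411). The authors' deposited table gave it 1.12 with an adjusted p of 6.53e-06. Grik3 had 9.47 and 7.25 FPKM in KO neurospheres, against 5.07 and 5.23 FPKM in WT neurospheres. Its log2 fold change of 0.60 did not pass in limma-trend (adjusted p = 0.189), while the authors' deposited table gave 0.75 with an adjusted p of 0.00353. Grik2 overlapped between the groups, with 11.3 and 14.2 FPKM in KO neurospheres and 13.4 and 14.5 FPKM in WT neurospheres. Its sign turned with the scaling, with a log2 fold change of −0.13 as deposited and 0.03 after rescaling.

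**Figure D2:**
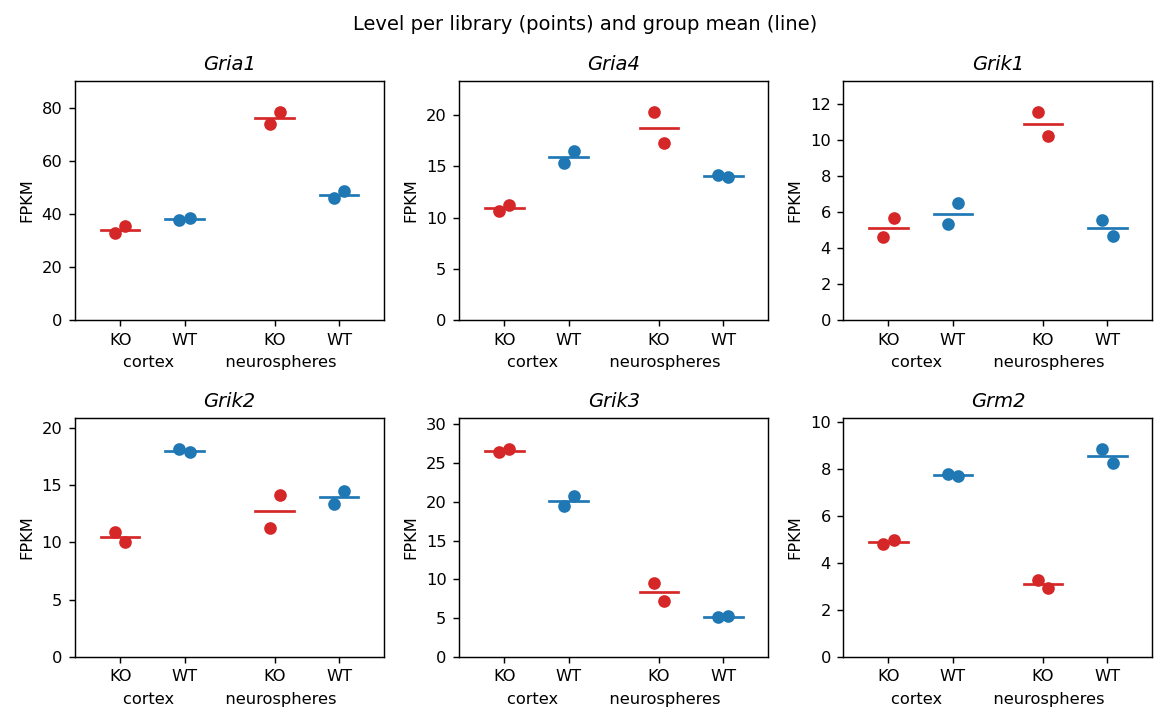
FPKM of 6 receptor genes in each library (points) with the group mean (line), KO left of WT, for cortex and neurospheres. Grik3 lies above WT and Grm2 below WT in both tissues, Grik2 lies below WT without overlap in cortex, and Gria1, Gria4 and Grik1 lie above WT in neurospheres but not in cortex.

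AMPA receptor genes fell in KO cortex for 3 of 4 subunits, and for 2 of 4 after rescaling. Gria4, which encodes GluA4, an early and interneuron-rich subunit, had 10.7 and 11.2 FPKM in KO cortex, against 15.3 and 16.48 FPKM in WT cortex. The groups did not overlap, and the log2 fold change was −0.50 (SE 0.08, limma-trend adjusted p = 0.00405). The authors' deposited table gave Gria4 −0.29 with an adjusted p of 0.0632, above the threshold. Gria3 had 8.98 and 9.79 FPKM in KO cortex, against 12.5 and 12.8 FPKM in WT cortex (−0.40, limma-trend adjusted p = 0.0111), and its call was lost without KO 1 (adjusted p = 0.0770). Gria2, which encodes GluA2, the subunit that makes the channel impermeable to calcium when edited, had 62.8 and 58.0 FPKM in KO cortex, against 70.7 and 75.2 FPKM in WT cortex. Its log2 fold change was −0.27 (limma-trend adjusted p = 0.0257), and the call was lost after rescaling and without WT 2, KO 1 or KO 2 (highest adjusted p = 0.205). Gria1, which encodes GluA1, had 32.7 and 35.3 FPKM in KO cortex and 37.8 and 38.5 FPKM in WT cortex, and did not pass (−0.16, limma-trend adjusted p = 0.113).

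In neurospheres 0 of 4 AMPA genes passed in limma-trend, with Gria1 and Gria4 higher at an unadjusted p under 0.05. Gria1 had 73.8 and 78.3 FPKM in KO neurospheres, against 46.0 and 48.5 FPKM in WT neurospheres. The libraries of each genotype lay close together and far from the other genotype, with a log2 fold change of 0.68 (SE 0.14, limma-trend adjusted p = 0.0784; 0.84 and 0.0356 after rescaling). The authors' deposited table gave 0.82 with an adjusted p of 2.66e-07. Gria4 had 20.3 and 17.3 FPKM in KO neurospheres, against 14.2 and 13.9 FPKM in WT neurospheres, and did not pass (0.39, limma-trend adjusted p = 0.24), although the authors' deposited table gave 0.53 with an adjusted p of 0.0263. Gria2 had the highest KO and WT means of the receptor genes in neurospheres, and its groups overlapped, with 114 and 118 FPKM in KO and 87.5 and 123 FPKM in WT. Gria1 made up 35.1% ± 0.86 of the summed AMPA FPKM in KO neurospheres and 27.4% ± 3.31 in WT neurospheres (SD, n = 2 each). The summed AMPA level itself was 214 and 220 FPKM in KO neurospheres, against 155 and 193 FPKM in WT neurospheres. In cortex the sum was 115.1 and 114.4 FPKM in KO, against 136 and 143 FPKM in WT.

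Among NMDA receptor genes, Grin1 and Grin3a fell in KO cortex, while Grin2b and Grin2d did not pass the test. Grin3a encodes GluN3A, a juvenile subunit that lowers calcium entry. It had 6.60 and 6.56 FPKM in KO cortex, against 10.3 and 11.7 FPKM in WT cortex, with no overlap (log2 fold change −0.66, SE 0.09, limma-trend adjusted p = 0.00211). Grin1, which encodes the obligatory subunit GluN1, had 18.1 and 20.8 FPKM in KO cortex, against 26.6 and 24.8 FPKM in WT cortex (−0.38, limma-trend adjusted p = 0.0143). The Grin1 call was lost after rescaling and without WT 1 or KO 1 (highest adjusted p = 0.102). Grin2b, which encodes GluN2B, the glutamate-binding subunit that dominates before birth, had 6.77 and 6.84 FPKM in KO cortex and 6.82 and 6.52 FPKM in WT cortex, with a log2 fold change of 0.03 (SE 0.08). The delta receptor gene Grid1, whose protein acts as a synaptic organizer, had 10.4 and 10.5 FPKM in KO cortex, against 12.6 and 11.5 FPKM in WT cortex, and did not pass (−0.19, limma-trend adjusted p = 0.125).

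In neurospheres Grin2c had the widest gap of the NMDA genes. Its product GluN2C is best known from cerebellar granule cells and astrocytes. Grin2c had 0.810 and 0.411 FPKM in KO neurospheres, against 2.85 and 3.60 FPKM in WT neurospheres. Both KO values were far below both WT values, and the gene did not pass the limma-trend threshold (log2 fold change −1.40, SE 0.26, adjusted p = 0.0651). The authors' deposited table gave −1.42 with an adjusted p of 1.36e-05. Grin2c made up 5.90% ± 2.11 of the summed FPKM of Grin2b, Grin2c and Grin2d in KO neurospheres and 27.1% ± 5.97 in WT neurospheres (SD, n = 2 each). Grin1 had 17.9 and 16.9 FPKM in KO neurospheres and 12.5 and 15.2 FPKM in WT neurospheres, and did not pass (0.32, limma-trend adjusted p = 0.344). Grid1 had 5.88 and 5.17 FPKM in KO neurospheres and 6.46 and 6.09 FPKM in WT neurospheres, a log2 fold change of −0.16, while the authors' deposited table put it at 0.14.

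**Figure D3:**
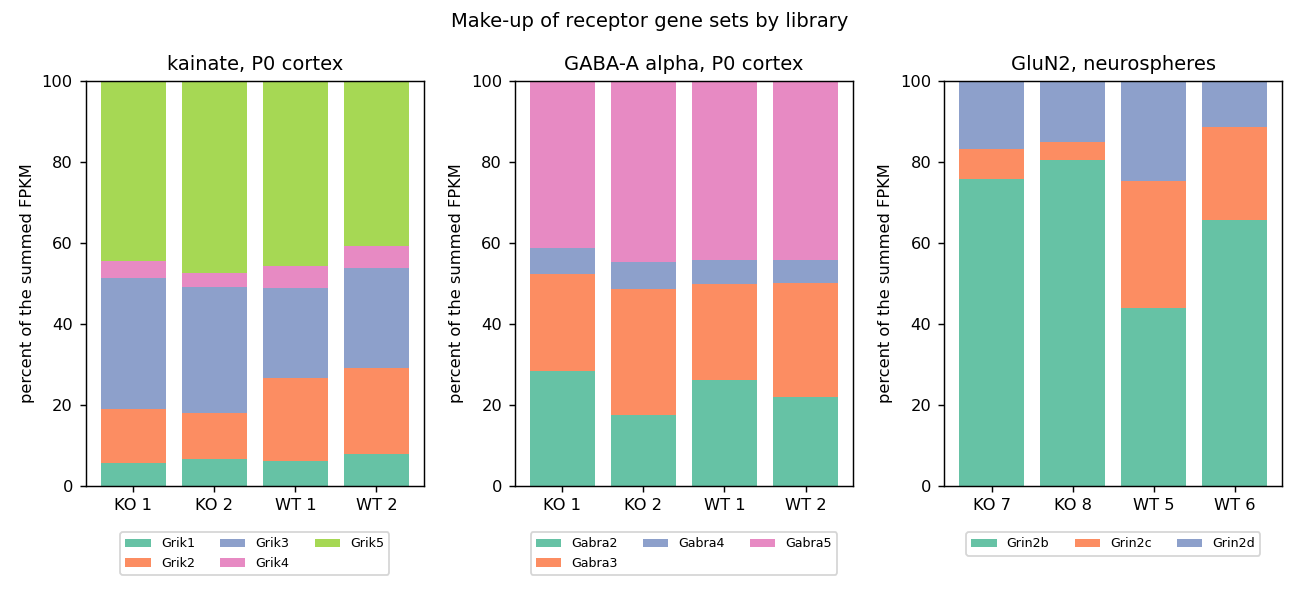
Percent of the summed FPKM of a set of receptor genes supplied by each gene, per library, for the kainate genes and Gabra2, Gabra3, Gabra4 and Gabra5 in cortex and the GluN2 genes in neurospheres, with KO bars left of WT bars. Grik2 supplies 12.5% in KO and 21.0% in WT cortex, Gabra5 supplies 42.9% in KO and 44.1% in WT cortex, and Grin2c is 5.90% in KO and 27.1% in WT neurospheres.

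The metabotropic glutamate receptor genes Grm2, Grm3, Grm5, Grm7 and Grm8 fell in KO cortex, with and without rescaling. Grm2 and Grm3 encode the group II autoreceptors that dampen glutamate release. Grm2 had 4.80 and 4.96 FPKM in KO cortex, against 7.78 and 7.69 FPKM in WT cortex, with tight replicates and no overlap (log2 fold change −0.57, SE 0.08, limma-trend adjusted p = 0.00318). In neurospheres Grm2 had 3.28 and 2.94 FPKM in KO, against 8.85 and 8.25 FPKM in WT. This was the 1 receptor gene that passed there (−1.22, SE 0.20, limma-trend adjusted p = 0.0471), and it missed the threshold after rescaling (−1.08, adjusted p = 0.0558). The fits without WT 5 or without WT 6 called no gene at all in neurospheres, and the highest adjusted p of Grm2 among them was 0.353. The authors' deposited table gave Grm2 −1.02 in neurospheres with an adjusted p of 0.000451.

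Grm3 had 9.64 and 9.53 FPKM in KO cortex, against 13.2 and 11.9 FPKM in WT cortex (log2 fold change −0.35, limma-trend adjusted p = 0.0177), a call that was lost under quantile normalization and without WT 1, KO 1 or KO 2 (highest adjusted p with a library left out = 0.101). Both KO neurosphere values of Grm3, 10.6 and 5.71 FPKM, also lay below the WT ones, 11.8 and 16.8 FPKM, without passing (−0.77, limma-trend adjusted p = 0.213). The group I gene Grm5, whose product couples to calcium release, was the most abundant metabotropic transcript in cortex. It had 13.9 and 13.7 FPKM in KO cortex, against 19.9 and 19.4 FPKM in WT cortex (−0.48, limma-trend adjusted p = 0.00311). The group III genes Grm7 and Grm8 encode presynaptic receptors. Grm7 had 6.24 and 5.92 FPKM in KO cortex, against 9.11 and 9.59 FPKM in WT cortex (−0.55, limma-trend adjusted p = 0.00358). Grm8 was lower still, with 0.568 and 0.705 FPKM in KO cortex, against 1.33 and 1.47 FPKM in WT cortex (−0.55, limma-trend adjusted p = 0.007), and its call was lost under quantile normalization. Grm4 did not pass (−0.29, limma-trend adjusted p = 0.0888). In neurospheres, Grm5 had 13.4 and 14.1 FPKM in KO and 16.3 and 17.4 FPKM in WT, and Grm7 had 0.795 and 0.810 FPKM in KO and 2.27 and 1.90 FPKM in WT, and neither passed.

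The GABA-A alpha subunit genes Gabra2, Gabra3, Gabra4 and Gabra5 fell in KO cortex, and each of these 4 remained lower after rescaling. Alpha subunits set the channel's affinity and synaptic place. The summed level of the 4 genes was 41.7 and 37.7 FPKM in KO cortex, against 79.9 and 75.2 FPKM in WT cortex, a ratio of 0.512. The corresponding ratios in cortex were 0.713 for the group II metabotropic genes, 0.822 for the AMPA genes and 0.893 for the GABA-B genes. For Grin2b and Grin2d, the GluN2 genes with an FPKM value in cortex, the ratio was 0.948, and for the kainate genes 0.978. These sums were not tested.

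Gabra5, which encodes the alpha5 subunit of extrasynaptic, tonically active receptors, was the most abundant alpha transcript in cortex. It had 17.2 and 16.8 FPKM in KO cortex, against 35.3 and 33.2 FPKM in WT cortex, with narrow groups far apart (log2 fold change −0.97, SE 0.07, limma-trend adjusted p = 0.00015). Gabra3, abundant in the embryonic and newborn brain, had 10.1 and 11.7 FPKM in KO cortex, against 19.04 and 21.2 FPKM in WT cortex (−0.83, SE 0.09, limma-trend adjusted p = 0.00124). Gabra2, also a subunit of early development, had 11.8 and 6.63 FPKM in KO cortex, against 20.8 and 16.4 FPKM in WT cortex. The KO libraries of Gabra2 differ widely from each other, and the log2 fold change of −0.98 (SE 0.21, limma-trend adjusted p = 0.0121) was −0.61 without KO 2 and lost its call without WT 1 (adjusted p = 0.0572). The authors' deposited table gave Gabra2 −0.49 with an adjusted p of 0.133. Gabra4 had 2.68 and 2.51 FPKM in KO cortex, against 4.78 and 4.32 FPKM in WT cortex (−0.63, limma-trend adjusted p = 0.00349). Gabra5 made up 42.9% ± 2.45 of the sum of these 4 genes in KO cortex and 44.1% ± 0.0054 in WT cortex (SD, n = 2 each).

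The products of the beta subunit genes help form the GABA binding site. Of these genes Gabrb1 fell in KO cortex, with 1.95 and 2.21 FPKM in KO cortex, against 4.34 and 4.18 FPKM in WT cortex (log2 fold change −0.77, SE 0.10, limma-trend adjusted p = 0.0017). Gabrb2 did not pass (−0.23, limma-trend adjusted p = 0.0655). The gamma subunits anchor receptors at synapses and confer benzodiazepine binding. Gabrg1 had 1.70 and 1.37 FPKM in KO cortex, against 2.24 and 2.55 FPKM in WT cortex (−0.42, limma-trend adjusted p = 0.024), and lost its call after rescaling and without WT 2 or KO 2 (highest adjusted p = 0.145). Gabrd, the gene of the extrasynaptic delta subunit, had 1.68 and 1.74 FPKM in KO cortex and 1.67 and 1.72 FPKM in WT cortex, and these ranges overlap.

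**Figure D4:**
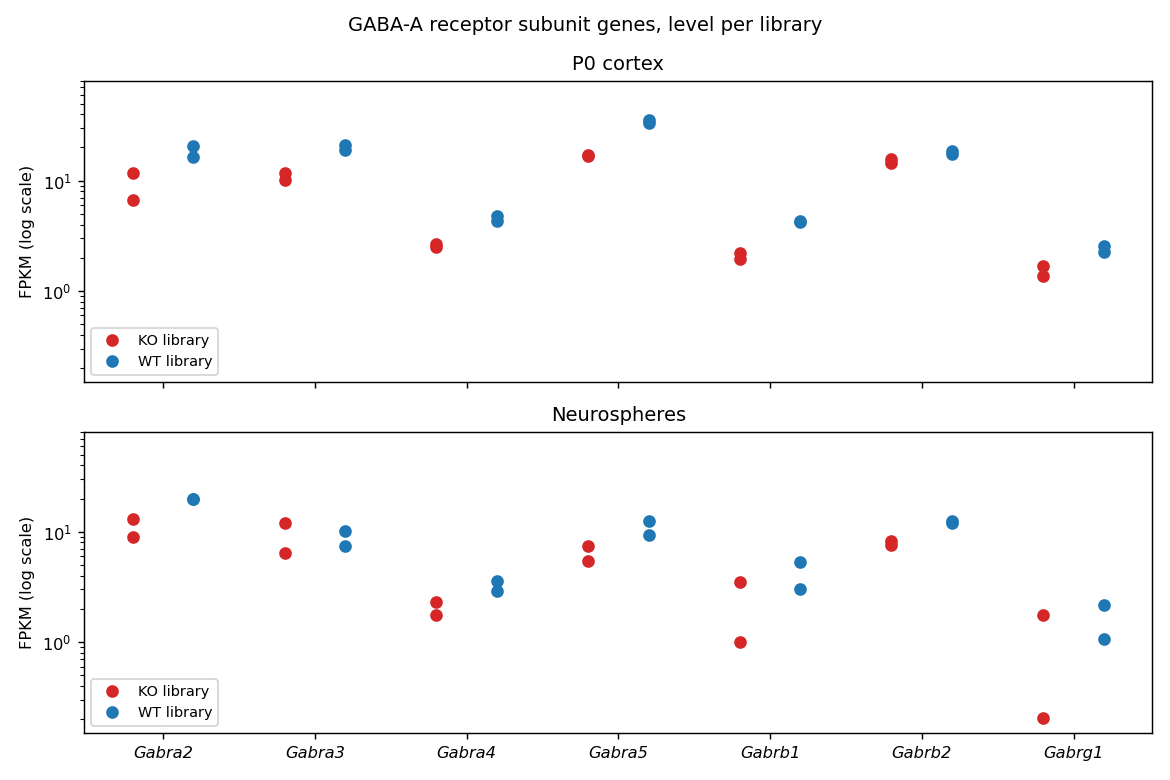
FPKM (log scale) of 7 GABA-A subunit genes in each library of P0 cortex (top) and neurospheres (bottom), with KO libraries left of WT libraries. In cortex the KO points lie below the WT points for each of the 7 genes. The ratio of the KO mean to the WT mean is lowest there for Gabra2, Gabra3, Gabra5 and Gabrb1. In neurospheres the points overlap for Gabra3, Gabrb1 and Gabrg1.

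Many GABA-A genes sit in clusters. Chromosome 5 was the one chromosome with several GABA-A genes on which each had an FPKM value in cortex, and the other clusters are not described here. The order there in RefSeq was Gabrg1, Gabra2, Gabra4 and Gabrb1, with Cox7b2 between Gabra2 and Gabra4. All 4 receptor genes fell in KO cortex, with log2 fold changes of −0.42, −0.98, −0.63 and −0.77 in that order. Of all genes tested in cortex, 17.7% were called lower. The Gabrg1 call was lost after rescaling, and the Gabrg1 and Gabra2 calls depended on single libraries, as given above. In neurospheres none of the 4 passed (limma-trend adjusted p = 0.555, 0.111, 0.309 and 0.368). Differences between these neighbours were not tested.

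In neurospheres Gabra2, Gabra4 and Gabra5 lay lower in both KO libraries than in either WT library, as did 38.3% of all genes. None of the 3 passed in limma-trend, and the groups of Gabra3 overlapped. Gabra2, the most abundant alpha transcript there, had 8.88 and 13.01 FPKM in KO neurospheres, against 19.9 and 19.7 FPKM in WT neurospheres. Its log2 fold change of −0.82 did not pass (limma-trend adjusted p = 0.111), whereas the authors' deposited table gave −0.67 with an adjusted p of 0.0358. The summed level of Gabra2, Gabra3, Gabra4 and Gabra5 was 28.004 and 29.1 FPKM in KO neurospheres, against 45.6 and 39.96 FPKM in WT neurospheres, a ratio of 0.667.

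GABA-B receptors need both subunits. Gabbr1, the GABA-binding subunit gene, was the most abundant inhibitory receptor transcript in cortex, with 67.5 and 69.5 FPKM in KO and 74.2 and 74.7 FPKM in WT, and did not pass (log2 fold change −0.12, limma-trend adjusted p = 0.187, and 0.00 in size after rescaling). Gabbr2, whose product couples to the G protein, had 12.96 and 14.3 FPKM in KO cortex, against 17.2 and 17.9 FPKM in WT cortex. It fell (−0.34, limma-trend adjusted p = 0.0172), but the call was lost after rescaling and without WT 2 or KO 1 (highest adjusted p = 0.113). In neurospheres Gabbr1 had 86.0 and 89.8 FPKM in KO and 92.8 and 90.5 FPKM in WT, a log2 fold change of −0.06 as deposited and 0.10 after rescaling. Gabbr2 did not pass there either (0.08, limma-trend adjusted p = 0.864).

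The KO effects were then set side by side for the 30 receptor genes measured in both tissues. The estimate was below 0 in both tissues for 19 genes, above 0 in both for 3 (Grik3, Grik5 and Grin2b), and below 0 in cortex but above 0 in neurospheres for 8. After rescaling these numbers were 15, 3 and 12. The same numbers were not counted over all genes, whose median log2 fold change was −0.10 in cortex and −0.15 in neurospheres before rescaling. The difference of the effects, cortex minus neurospheres, passed for 2 genes with a negative sign, Gria1 and Gria4, and for 0 with a positive sign (limma-trend on all 8 libraries). Over all 10947 genes, 0.42% were called negative and 0.977% positive. At an unadjusted p under 0.05, 8 receptor genes were negative and 1 positive, beside 6.65% and 11% of all genes. The difference was −0.84 for Gria1 (SE 0.13, limma-trend adjusted p = 0.029) and −0.89 for Gria4 (SE 0.16, limma-trend adjusted p = 0.0435), both AMPA subunit genes. Grik1 had the widest difference, −1.13 (SE 0.22), and just missed the threshold (limma-trend adjusted p = 0.0504). It passed after rescaling, as the third gene beside Gria1 and Gria4. Leaving out any 1 of WT 1, WT 2, KO 1 or KO 2 of cortex left 0 receptor genes called, in fits that called 0 to 3 negative and 3 to 14 positive of all 10947 genes. Over the 8 left-out fits the difference stayed between −0.89 and −0.78 for Gria1 and between −0.996 and −0.776 for Gria4. Leaving out a neurosphere library gave 1 negative call without WT 5, 7 without WT 6, 2 without KO 7 and 5 without KO 8, and without WT 6 the positive side gained 1, Grm2. The negative calls over all genes were 48, 388, 91 and 107 in these 4 fits, against 46 with every library. Age, culture and possibly the Cre driver differ between the tissues together, and their parts cannot be told apart.

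**Figure D5:**
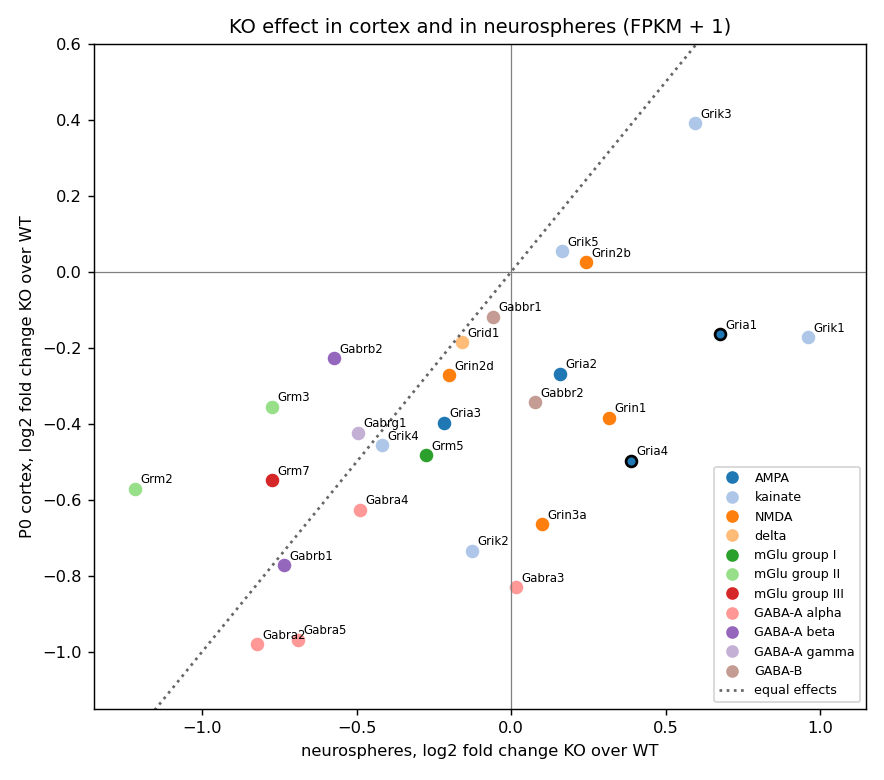
Log2 fold change of KO over WT in P0 cortex (vertical) against that in neurospheres (horizontal) for 27 receptor genes measured in both, coloured by class, with the dotted line marking equal effects. Gria1 and Gria4, outlined in black, lie at −0.16 and −0.50 in cortex and 0.68 and 0.39 in neurospheres, and no gene lies above 0 in cortex and below 0 in neurospheres.

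The remaining receptor genes were seen only in the authors' deposited tables, where they had low counts. In cortex 11 receptor genes were outside the FPKM table, with mean normalized counts between 0.254 and 61.7 in the authors' deposited table, against 81.6 to 12587 for the measured ones. In neurospheres 12 receptor genes were in the authors' deposited table but not in the FPKM table, with 0.915 to 126, against 103 to 11848. Gabra6, Gabrr3 and Grm6 were in neither table for neurospheres. The authors' deposited tables called 0 of these 11 and 12 genes. They gave no adjusted p to 7 in cortex and 9 in neurospheres. The 10 genes with no FPKM in either tissue were Gabra6, Gabre, Gabrg3, Gabrq, Gabrr1, Gabrr2, Gabrr3, Grin2a, Grin3b and Grm6. Among them are the adult NMDA subunit gene Grin2a, the cerebellar Gabra6, and the Gabrr and Grm6 genes best known from retina. A gene below the WT limit could not be tested on FPKM.

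Genes that act with the receptors were counted by list, to be read beside the 17.7% of all genes called lower and 4.8% called higher in cortex (7.75% and 9.56% after rescaling). Of 18 auxiliary subunit genes of AMPA and kainate receptors, 7 fell and 0 rose in KO cortex (3 fell after rescaling), with Shisa9 (−0.50), Cacng5 (−0.50) and Gsg1l (−0.47, lost after rescaling) furthest from 0. Of 23 postsynaptic scaffold genes, 6 fell and 3 rose in KO cortex (4 and 5 after rescaling), led by Nlgn1 (−0.74), which encodes a synaptic adhesion protein, Grip1 (−0.51), which encodes an AMPA receptor scaffold, and the kinase gene Camk2b (0.50). Of 16 partner genes of GABA-A and GABA-B receptors, 6 fell and 1 rose (4 and 2 after rescaling). Gphn, which encodes gephyrin, the scaffold of inhibitory synapses, had 13.97 and 14.3 FPKM in KO cortex, against 19.6 and 19.99 FPKM in WT cortex (−0.46). The chloride exporter gene Slc12a5 (−0.40) and the GABA-B auxiliary gene Kctd12 (−0.38) also fell. The Slc12a5 call was lost after rescaling (limma-trend adjusted p = 0.0953), and its adjusted p in the authors' deposited table was 0.0542. Both measured glycine receptor genes, Glrb (−0.51) and Glra2 (−0.40), fell (after rescaling Glrb was still called and Glra2 was not). In neurospheres 0 genes were called in either direction in each of these 4 lists, of 18, 23, 14 and 2 measured genes (limma-trend, as above). At an unadjusted p under 0.05 the higher and lower genes were 4 and 2, 6 and 4, 1 and 0, and 0 and 0. In the authors' deposited table for neurospheres the calls of those lists were 2 and 1, 2 and 2, 1 and 0, and 0 and 0. Over all genes in neurospheres, 3.77% were higher and 16.3% lower without adjustment. The authors' deposited table called 3.49% higher and 2.3% lower.

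Genes of transmitter handling were counted the same way. In neurospheres the GABA synthesis and release genes Gad1 (1.01), Gad2 (1.02) and Slc32a1 (0.98) rose, 3 of 7 measured, and 0 fell. Over all genes tested there, 0.219% were called higher and 0.929% lower. Gad1, which encodes a glutamate decarboxylase, had 116 and 123 FPKM in KO neurospheres, against 63.8 and 53.6 FPKM in WT neurospheres. Of 11 glutamate synthesis, release and uptake genes, 2 fell there: the glial glutamate transporter gene Slc1a3 (−1.38) and the glutamine transporter gene Slc38a3 (−1.49). Slc1a3 had 75.2 and 77.0 FPKM in KO neurospheres, against 203 and 195 FPKM in WT neurospheres. In cortex 3 of 12 glutamate handling genes fell and 1 rose (3 and 2 after rescaling), with Slc17a6 (−0.66), a vesicular glutamate transporter gene, Slc1a6 (−0.57) and the glutamine synthetase gene Glul (0.47) named by size. Of 8 GABA handling genes in cortex, 3 fell and 1 rose (2 and 1 after rescaling), among them the glial GABA transporter gene Slc6a11 (−0.77), the GABA breakdown gene Aldh5a1 (−0.59) and Slc6a13 (0.30).

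Cell type markers are given beside these values, because in bulk samples fewer cells of a type and less RNA per cell cannot be told apart. The neurospheres expressed all 8 radial glia and stem cell markers and also all 11 pan-neuronal ones. Their marker counts stand beside limma-trend calls of 0.929% lower and 0.219% higher over all genes in neurospheres. Without adjustment, 16.3% of all genes were lower and 3.77% higher, and the authors' deposited table called 2.3% lower and 3.49% higher. In neurospheres 6 of 9 interneuron markers rose and 0 fell, with a summed level of 1328 and 1341 FPKM in KO, against 1001 and 807 FPKM in WT. The interneuron list shares Gad1, Gad2 and Slc32a1 with the GABA handling list. Of the radial glia and stem cell markers 1 fell (813 and 987 FPKM in KO, against 1568 and 1219 FPKM in WT). At an unadjusted p under 0.05, 5 of the radial glia markers were lower, and the authors' deposited table called 2 lower. Pan-neuronal markers gave 0 calls of 11 in limma-trend, with 5 higher at an unadjusted p under 0.05 and 5 higher in the authors' deposited table (1588 and 1483 FPKM in KO, 1456 and 1244 FPKM in WT). Excitatory neuron markers gave 1 higher of 8 (375 and 324 FPKM in KO, 382 and 343 FPKM in WT), 3 higher after rescaling, 3 higher and 4 lower without adjustment, and 3 higher in the authors' deposited table. Oligodendrocyte lineage markers gave 1 higher of 8, 2 higher and 4 lower without adjustment, and 1 higher and 2 lower in the authors' deposited table. Astrocyte markers gave 0 calls of 7 (1 lower unadjusted, 0 in the authors' deposited table), and the 1 measured meningeal marker was higher. The other 4 meningeal markers and all microglia and endothelial markers were absent from the neurosphere FPKM table, which was restricted on WT libraries. The authors' deposited table called 4 of 5 meningeal markers higher in KO neurospheres. It also called higher the 1 endothelial marker to which it gave an adjusted p.

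In cortex, where 17.7% of all genes were called lower and 4.8% higher, the pan-neuronal markers gave 5 higher and 1 lower of 11. Their summed level was 3093 and 3083 FPKM in KO, against 2841 and 2880 FPKM in WT. Of these markers Nefl (1.07) and Nefm (0.89) rose most, and Elavl4 (−0.61) fell. Excitatory neuron markers gave 1 higher and 3 lower of 8 (362 and 355 FPKM in KO, 393 and 373 FPKM in WT), and interneuron markers 0 higher and 1 lower of 9 (260 and 305 FPKM in KO, 344 and 310 FPKM in WT). Astrocyte markers gave 4 higher and 1 lower of 7, at 646 and 577 FPKM in KO, against 327 and 346 FPKM in WT. Radial glia markers gave 3 higher of 8, oligodendrocyte lineage markers 4 of 8, meningeal markers 4 of 5, endothelial markers 1 of 6, and microglia markers 4 higher and 1 lower of 7. After rescaling, excitatory neuron markers had 2 lower, astrocyte markers 0 lower, oligodendrocyte lineage markers 5 higher and endothelial markers 3 higher, and the other counts stayed as they were. No measured marker was at 0 in a library. The part of these cell types in the receptor values was not tested.

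The cortex calls rest on 2 libraries per genotype and on a spread estimated within cortex. Of the 24 calls, 12 held under every left-out library and both other scalings, among them Gabra3, Gabra4, Gabra5, Gabrb1, Gria4, Grik2, Grin3a, Grm2, Grm5 and Grm7. How many of the cortex calls over all genes held in the same way was not counted. When 1 spread was shared over all 8 libraries, limma-trend called only 5 genes lower and 1 higher in cortex of all 10947, and none of these was a receptor gene. At an unadjusted p under 0.05 that fit had 17 of 30 receptor genes lower and 1 higher, beside 10.4% and 3.12% of all genes. Without KO 2, the library with the highest Rn45s value, the median log2 fold change was −0.43 for the receptor genes and −0.08 for all genes. KO 1, which remains in that fit, also lay above both WT libraries in Rn45s, so the fit does not remove the Rn45s difference.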

How the data were processed

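RNA-seq libraries were 2 KO and 2 WT each from neurospheres and cortex. Bowtie, Cufflinks, STAR, featureCounts, DESeq2 and Trim Galore were run on mouse build mm9, per the submitters' processing notes. Tool versions and the use of strand are not stated in the sources used here. Values of overlapping antisense genes are therefore uncertain. FPKM values with Cufflinks interval bounds were deposited by the authors, per the file headers. A second pair of deposited tables holds the authors' signal column (mean normalized count), log2 fold change, its standard error (entered as a score) and p-value with its adjusted value, printed here only as theirs. Rows with a date for a symbol (20 in the neurosphere and 21 in the cortex FPKM table) were removed, and of repeated symbols the row highest on average was kept.

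Each tissue was fitted alone with limma-trend (limma 3.58.1, R 4.3.3, two-sided) on log2(FPKM + 1), for genes averaging at least 1 FPKM, with Benjamini-Hochberg adjustment over all genes and a threshold of 0.05. A fold change on this scale understates that of low genes. The difference between tissues was a contrast over all 8 libraries. The fit was tested on simulated data. Tables and figures used Python 3.11.15 with pandas 2.3.3 and matplotlib 3.10.9. Alternatives were another pseudocount, no filter, median-ratio rescaling, quantile normalization, a shared spread, a replicate block and leaving out each library. Receptor genes were named with library values if called in either tissue, in the difference or in the authors' deposited table, or if highest in their class in WT, and partner genes by the 3 largest called changes per list and tissue. Within each receptor family every symbol was taken, but the families and lists were chosen with earlier results of these data known. Promoter sequences came from RefSeq (GRCm38.p6). Some receptor genes count in the totals but are not reported here.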

Additional observations from a re-analysis of the deposited data

Results flagged for a closer look

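The KO effect on Gria1 differed between the tissues by −0.84 on the log2 scale, cortex minus neurospheres, and that on Gria4 by −0.89 (limma-trend on all 8 libraries, adjusted p = 0.029 and 0.0435). Gria1 lay at −0.16 in cortex and 0.68 in neurospheres, and Gria4 at −0.50 in cortex and 0.39 in neurospheres. Both calls were lost when any 1 cortex library was left out, in fits that called 0 to 3 genes negative of all 10947, while the difference stayed between −0.89 and −0.78 for Gria1 and between −0.996 and −0.776 for Gria4 over the 8 left-out fits.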

How the results depend on the processing

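In cortex the number of receptor genes called lower was 23 as reported, 17 after median-ratio rescaling, 16 after quantile normalization and 16 to 20 with 1 library left out, and the number called higher was 1, and 0 to 1 with 1 library left out. With the spread shared over all 8 libraries both were 0, in a fit that called 5 lower and 1 higher of all 10947 genes. With the replicate block, 23 were lower and 1 higher, the same genes. Cortex libraries of the same number did not deviate together (correlation of deviations −0.0955 over 11988 genes), and the labels do not say that numbers pair the brains. No paired analysis was possible for neurospheres because their KO and WT numbers differ. In neurospheres the number called higher was 0 as reported, 2 after rescaling, 2 after quantile normalization, 3 with the shared spread and 0 to 1 with 1 library left out. The number called lower was 1 as reported, 0 with a pseudocount of 0.1 FPKM, 0 after rescaling, 0 after quantile normalization, 5 with the shared spread and 0 to 5 with 1 library left out. Over all genes the calls moved too: the shared spread called 12.2% lower and 3.01% higher in neurospheres, and leaving out KO 7 or KO 8 called 3.42% or 5.46% lower, against 0.929% with every library. The tissue difference gave 2 negative calls as reported, 3 without the filter, after rescaling or after quantile normalization, and 0 to 7 with 1 library left out. Its positive calls were 0, and 0 to 1 with 1 library left out. The cause of these shifts was not tested. No gene among the calls as reported changed sign under these alternatives. In neurospheres the log2 fold change of Gabrg1, not called there as reported, ran from −1.09 to 0.10 with 1 library left out. Among the shares given, KO minus WT ranged with 1 library left out from −9.44 to −7.57 percentage points for Grik2 in cortex, 5.28 to 9.95 for Gria1 in neurospheres and −25.5 to −17.02 for Grin2c in neurospheres. The deposited intervals were not set against the spread between libraries, so what depth limits was not measured.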
